A study of Mus musculus with 2 samples.

Results

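The genes described here are the 10 nuclear genes Tfam, Tfb1m, Tfb2m, Polrmt, Tefm, Polg, Polg2, Twnk, Ssbp1 and Lonp1, whose protein products serve the transcription, copying and turnover of mitochondrial DNA and its proteins. They were taken by name from the 21938 protein-coding genes of the GENCODE M21 annotation. For each gene, every GABPα peak within 1000 bp of an annotated transcript start was taken, and the nearest peak where there was none. The cells were CD4 T cells that had been purified with MACS beads from wild-type C57BL/6 mice, and GABPα was immunoprecipitated for sequencing (ChIP-seq) with the antibody sc-22810X. The experiment had 1 ChIP library and 1 input library that was made without antibody from cells of the same kind, and no replicates, so no p-value could be given. The list holds 6782 peaks as positions only, with no height or fold enrichment. It has no expression values, so the identity of the cells could not be checked against their markers.

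GABPα is the DNA-binding subunit of GA-binding protein, an ETS family factor also known as nuclear respiratory factor 2 (NRF-2), and it recognises DNA around a GGAA core. The mitochondrial genome codes for a small set of respiratory chain subunits and RNAs, and the proteins that copy and transcribe it are encoded by nuclear genes, made in the cytosol and imported. Transcription is carried out by the polymerase POLRMT with the factors TFAM, TFB2M and TEFM, and replication by the polymerase POLG with its accessory subunit POLG2, the helicase Twinkle and the single-strand binding protein SSBP1. Several of the genes for these proteins are textbook targets of the nuclear respiratory factors.

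A GABPα peak was present at 9 of the 10 genes (90%, Wilson 95% interval 59.6 to 98.2%), each with exactly 1 peak, and Lonp1 had none. Over all protein-coding genes, 17.7% had a peak within the same distance (3880 of 21938, Wilson 95% interval 17.2 to 18.2%). That share was not limited to genes expressed in the cells. A peak was present at 5 of 5 genes of the transcription group and 4 of 4 of the replication group. The transcription group is Tfam, Tfb1m, Tfb2m, Polrmt and Tefm, where Tfb1m, a ribosomal RNA methyltransferase, was placed beside its relative Tfb2m. The full GABP motif searched, CCGGAAG on either strand, was in 7 of the 9 peaks, against 57.2% of the 3459 peaks near starts of protein-coding genes (interval 55.6 to 58.9%). Tfb1m and Tfb2m were the ones without it. The sequence around the core that carries the longest motif form in each peak, and lies nearest its midpoint, is shown for each gene, read from the GRCm38.p6 genome (mm10) along the strand on which the core reads GGAA, with the motif in capitals.
Tfam, chr10:71238073-71238102, minus strand: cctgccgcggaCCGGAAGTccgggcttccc
Tfb1m, chr17:3557839-3557868, plus strand: gacgaaactgacaGGAAgtctgtatgtact
Tfb2m, chr1:179546284-179546313, minus strand: cctaggcggaagCGGAAGcgagtgagcaaa
Polrmt, chr10:79746607-79746636, plus strand: ttctgcgactgCCGGAAGcgctcttagggt
Tefm, chr11:80142144-80142173, minus strand: agcacacgaaaCCGGAAGTtgaggaggaac
Polg, chr7:79466293-79466322, minus strand: gaggacctcacCCGGAAGTccctctgcacc
Polg2, chr11:106779549-106779578, plus strand: agaccacgcccCCGGAAGagcgtcacccgc
Twnk, chr19:45006436-45006465, minus strand: caaccccggaaCCGGAAGTcaccggttagt
Ssbp1, chr6:40471410-40471439, plus strand: ggctccgtgcgCCGGAAGcgagccgctggc

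All 9 windows were 30 bases long and were aligned on their GGAA. The base right after the core was G in 9 of 9, and each of the 2 bases right before it was C in 8 of 9. The next base after the G was T in 5 of 9. The base before those 2 positions was A in 5 of 9, among them Tfb1m and Tfb2m, which lack the C pair. The core itself was set by the choice of windows. The bases next to it were largely set too, since the longest motif form was chosen, and only Tfb1m was shown by GGAA alone. The longer form CCGGAAGT was in the peaks of Tfam, Tefm, Polg and Twnk, 4 of 9, against 30.5% of the peaks near coding starts (interval 29 to 32%). The shorter form CGGAAG was in 8 of 9 against 76.6%, and GGAA alone in 9 of 9 against 98.8%.

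Among peaks near coding starts with widths in the range of the 9 peaks, 154 to 405 bp, 62.7% held CCGGAAG (1597 of 2548, interval 60.8 to 64.5%). The count of 7 of 9 therefore stands beside shares of 57.2% and 62.7%, and 9 peaks are too few to tell such shares apart. The 8 copies of CCGGAAG in the 7 peaks were split between the strands, with 4 in the orientation of the gene and 4 opposite to it. Their cores lay downstream of the GENCODE gene start in 6 copies and upstream in 2, those of Polrmt and Polg2. The direction turned with the annotation: measured from the nearest RefSeq start of the gene, all 8 cores lay upstream, by 7 to 106 bp. Measured from the peak midpoint, the nearest core of the 7 peaks was 0 to 57 bp away with a median of 10.5 bp. Over the 1979 peaks near coding starts with the motif the median was 17.5 bp.

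**Figure D1:**
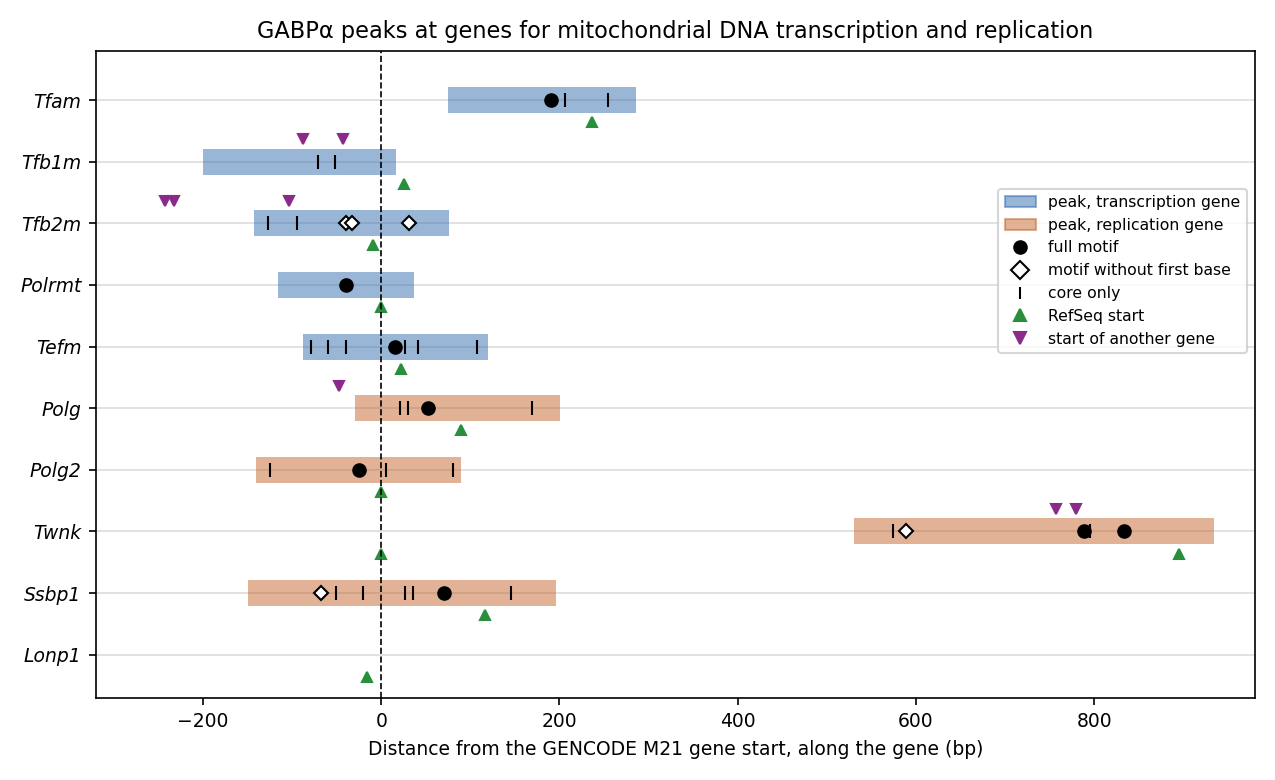
Peaks drawn to scale along each gene, in bp from its GENCODE M21 gene start (dashed line), with filled circles for CCGGAAG, diamonds for CGGAAG without the first C, ticks for GGAA alone, green triangles for RefSeq starts and purple triangles for starts of other genes. Most of the 9 peaks lie across or next to the gene start, the Twnk peak lies 530 to 934 bp downstream of it, and the Lonp1 row has no peak.

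In the transcription group, Tfam encodes the high mobility group protein that packages mitochondrial DNA and binds its promoters. Its gene (ENSMUSG00000003923.14) is at chr10:71225464-71238280 on the minus strand. The peak at chr10:71237994-71238205 was 212 bp wide and lay 75 to 286 bp downstream of the GENCODE gene start, so it covered none of the 5 annotated transcript starts. The RefSeq start of Tfam, at chr10:71238044, is 236 bp downstream of the GENCODE start and inside the peak. The peak held 3 GGAA cores, 1 of them in a CCGGAAGT, with the core 191 bp downstream of the GENCODE start. It was the richest in GC of the 9 peaks, at 72.2%.

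Polrmt encodes the single-subunit RNA polymerase of mitochondria. The gene (ENSMUSG00000020329.12) is at chr10:79736123-79746581 on the minus strand, and its peak at chr10:79746544-79746697 was the narrowest of the 9 at 154 bp. That width is below the median of the whole list, 157 bp, and only 23.1% of peaks near coding starts were as narrow or narrower. The peak ran from 116 bp upstream to 37 bp downstream of the gene start and covered 6 transcript starts. It held a single GGAA core, and this core was part of a CCGGAAG, 39 bp upstream of the start and 0.5 bp from the midpoint of the peak. The 116 bases of the peak upstream of the gene start (chr10:79746582-79746697) lie in no GENCODE exon and are shown along the gene, with capitals on the motif, which reads as its reverse complement CTTCCGG.
Polrmt upstream part: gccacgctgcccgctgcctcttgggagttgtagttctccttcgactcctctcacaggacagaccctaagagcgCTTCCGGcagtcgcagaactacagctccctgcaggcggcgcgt

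Tefm encodes the elongation factor of the mitochondrial polymerase. The gene (ENSMUSG00000046909.9) is at chr11:80136678-80142175 on the minus strand. Its peak at chr11:80142055-80142263 was 209 bp wide and ran from 88 bp upstream to 120 bp downstream of the gene start. It held 7 GGAA cores, as many as the peak of Ssbp1 and more than the other 7 peaks. A single one was in a CCGGAAGT, 15 bp downstream of the start and 1 bp from the midpoint of the peak.

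Tfb2m encodes the factor that melts the mitochondrial promoter with POLRMT. The gene (ENSMUSG00000026492.11) is at chr1:179528055-179546267 on the minus strand, and its peak at chr1:179546191-179546410 was 220 bp wide, from 143 bp upstream to 76 bp downstream of the start. It held no CCGGAAG but 3 copies of CGGAAG, and 2 of these lay on the strand of the gene with their cores 33 and 39 bp upstream of the start, 6 bp apart. A pair of CGGAAG on the same strand 6 bp apart was found in 2.34% of peaks near coding starts (81 of 3459, interval 1.89 to 2.9%), and 3 or more copies in 11% (interval 9.96 to 12%). The spacing and the number of copies were taken from this peak after it was seen. Their shares therefore do not show the peak to be unusual. The third copy, with its core 31 bp downstream, faced the other way. The peak also covered the start of Cnst, a protein-coding gene on the other strand 103 bp from the start of Tfb2m. The 102 bases between these starts (chr1:179546268-179546369) lie in no GENCODE exon, though the RefSeq start of Tfb2m is 9 bp into them, and are shown along Tfb2m, with capitals on both CGGAAG copies.
Tfb2m and Cnst stretch: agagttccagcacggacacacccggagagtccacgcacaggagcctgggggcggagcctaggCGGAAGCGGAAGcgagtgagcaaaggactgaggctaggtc

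Tfb1m encodes a methyltransferase related to TFB2M that modifies the small ribosomal RNA of mitochondria. The gene (ENSMUSG00000036983.7) is at chr17:3519256-3557781 on the minus strand. Its peak at chr17:3557764-3557981 was 218 bp wide and lay mostly upstream, from 200 bp upstream to 17 bp downstream of the gene start. It was the only one of the 9 peaks with no CGGAAG, and it held 2 GGAA cores, 71 and 52 bp upstream of the start. The core at 71 bp is the one shown among the 9 windows, and the core at 52 bp had the context shown here, with the core in capitals.
Tfb1m second core, chr17:3557820-3557849, plus strand: ggagaaacctgccGGAAatgacgaaactga
This second core was preceded by the C pair of the motif but followed by A in place of G. The same peak covered the start of 1700102H20Rik, a long intergenic non-coding RNA on the other strand, 43 bp from that of Tfb1m.

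In the replication group, Polg encodes the catalytic subunit of the mitochondrial DNA polymerase. The gene (ENSMUSG00000039176.17) is at chr7:79446231-79466362 on the minus strand. Its peak at chr7:79466161-79466391 was 231 bp wide and lay mostly downstream, from 29 bp upstream to 201 bp downstream of the gene start, where it covered 5 transcript starts and the RefSeq start at 89 bp. It held 4 GGAA cores, 1 of them in a CCGGAAGT with the core 53 bp downstream of the start. A transcript of unconfirmed type on the other strand, Gm10616, starts 47 bp from Polg and 18 bp outside the peak.

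Polg2 encodes the accessory subunit that holds the polymerase on its template. The gene (ENSMUSG00000020718.12) is at chr11:106768253-106779537 on the minus strand, and its peak at chr11:106779447-106779677 was also 231 bp wide. It ran from 140 bp upstream to 90 bp downstream of the start and covered 5 transcript starts. Of its 4 GGAA cores, 1 was in a CCGGAAG, 25 bp upstream of the gene start and exactly at the midpoint of the peak. The 140 bases upstream of the start (chr11:106779538-106779677) lie in no GENCODE exon and are shown along the gene, with capitals on the motif, read as CTTCCGG, and on the other core.
Polg2 upstream part: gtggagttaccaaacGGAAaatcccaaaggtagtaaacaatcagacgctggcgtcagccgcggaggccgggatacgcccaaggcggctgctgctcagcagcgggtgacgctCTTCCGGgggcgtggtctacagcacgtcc

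Ssbp1 encodes the protein that coats single-stranded mitochondrial DNA. The gene (ENSMUSG00000029911.14) is at chr6:40471352-40484700 on the plus strand. Its peak at chr6:40471203-40471548 was 346 bp wide, a width that 92.7% of peaks near coding starts did not exceed, and ran from 149 bp upstream to 196 bp downstream of the start. It covered 6 of the 7 transcript starts and the RefSeq start, which is 116 bp downstream. Of its 7 GGAA cores, 1 was in a CCGGAAG, 71 bp downstream, and another in a CGGAAG facing the other way, 68 bp upstream.

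Twnk encodes the helicase Twinkle, which unwinds mitochondrial DNA ahead of the polymerase. The gene (ENSMUSG00000025209.5) is at chr19:45005663-45012762 on the plus strand, with transcript starts at 45005663 and, for Twnk-201, at 45006558. Its peak at chr19:45006193-45006597 was the widest of the 9 at 405 bp, a width that 96.3% of peaks near coding starts did not exceed. The peak began 530 bp downstream of the gene start, left the first transcript start uncovered and covered that of Twnk-201. It also covered both annotated starts of Mrpl43, which encodes a protein of the large mitochondrial ribosomal subunit and is read from the other strand. Of the 3 CGGAAG copies in the peak, 2 were CCGGAAG, with cores 789 and 833 bp downstream of the gene start, 44 bp apart and on the same strand. Both lay between the gene start of Mrpl43 and the start of Twnk-201, which are 116 bp apart. These 115 bases (chr19:45006443-45006557) lie in no GENCODE exon and are shown along Twnk, with capitals on both copies, read as CTTCCGG.
Mrpl43 and Twnk stretch: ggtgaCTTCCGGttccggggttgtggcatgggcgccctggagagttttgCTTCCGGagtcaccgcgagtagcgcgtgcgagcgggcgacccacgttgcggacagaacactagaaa

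A start of another protein-coding gene on the opposite strand thus lay within 1000 bp of the gene start of Tfb2m and of Twnk, and with genes of any type the number was 4, with Tfb1m and Polg added. At the shared peaks, binding that belongs to one gene and binding that belongs to its neighbour cannot be told apart. All 36-base sequences of the peak, the read length of the libraries before trimming, occurred once in the genome at 8 of the 9 genes, and 99.5% did at Tfb2m. Trimmed reads could be shorter, and uniqueness at shorter lengths was not measured. At most 18.5% of the bases of a peak were soft-masked as repeats, at Ssbp1.

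Lonp1 encodes the ATP-dependent protease of the mitochondrial matrix, which degrades TFAM that is not bound to DNA. The gene (ENSMUSG00000041168.10) is at chr17:56614297-56626887 on the minus strand. The nearest peak, chr17:56613307-56613490, was 184 bp wide and lay 13385 bp from the nearest start of Lonp1, 807 bp beyond the 3′ end of the gene. It covered the start of Rpl36, a gene of the cytosolic ribosome, and held no CGGAAG. A nearest peak at least as far away is common, since 74.2% of protein-coding genes (16268 of 21938) had no peak as near. Within 1000 bp of the Lonp1 gene start there were 21 GGAA cores but no CCGGAAG, and the single CGGAAG, 620 bp upstream, is shown with the motif in capitals.
Lonp1, chr17:56627494-56627523, plus strand: ttctgaaggcatCGGAAGaaaagtacagcg

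**Figure D2:**
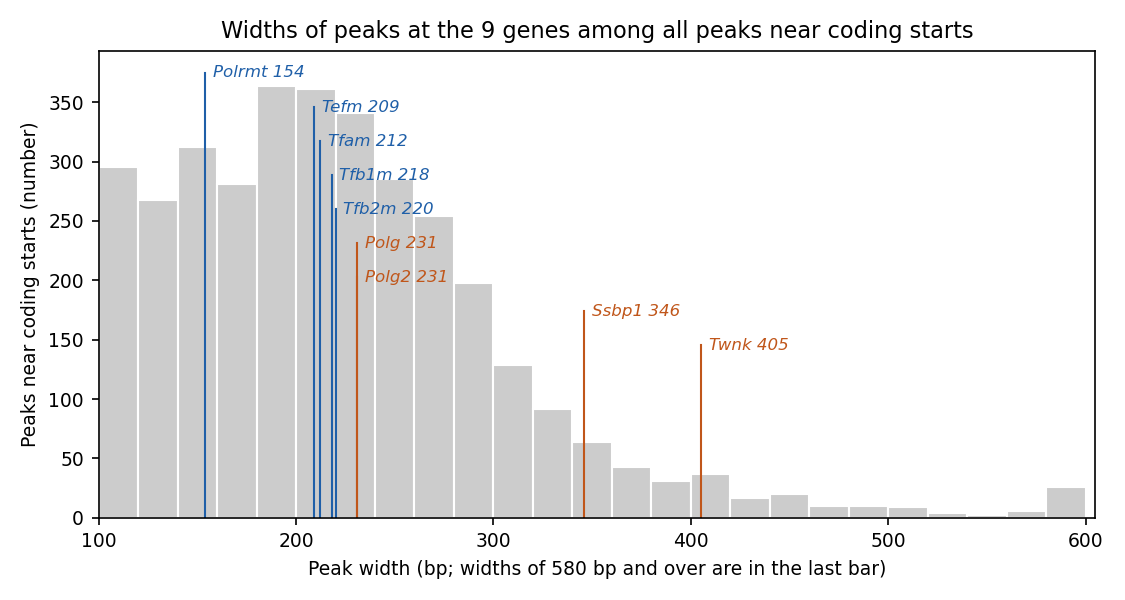
Widths of the peaks at the 9 genes (coloured lines, blue for transcription and orange for replication, in bp) over the number of all 3459 peaks near coding starts in bins of width (grey bars). Tfam, Tfb1m, Tfb2m and Tefm lie around the middle of the distribution, Polrmt at 154 bp lies below its first quartile of 159 bp, and Ssbp1 and Twnk lie in its upper tail at 346 and 405 bp.

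The widths of the 9 peaks had a median of 220 bp, beside 210 bp for peaks near coding starts (quartiles 159 and 267 bp) and 157 bp for the whole list. The 5 transcription genes had widths of 154 to 220 bp (median 212 bp), and the 4 replication genes 231 to 405 bp (median 288 bp). The widths of the groups did not overlap, but they came close, with 220 bp at Tfb2m and 231 bp at Polg and Polg2. Of peaks near coding starts, 54.7% and 60.5% were no wider than these. The list gives no error for a width and there is 1 library, so the difference was not tested. A wide interval is not a measure of strong binding, and the Twnk peak spans the starts of a pair of genes.

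The midpoints of the 9 peaks lay a median of 39.5 bp from the nearest transcript start of the gene. The peaks covered the gene start at 7 genes and some annotated transcript start at 8, with Tfam the exception. RefSeq starts were found for 10 of 10 genes, and 8 of the 9 peaks covered one, here with Tfb1m the exception. Tfam and Tfb1m therefore changed sides with the annotation, and neither the number with a peak nor the median distance changed.

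**Figure D3:**
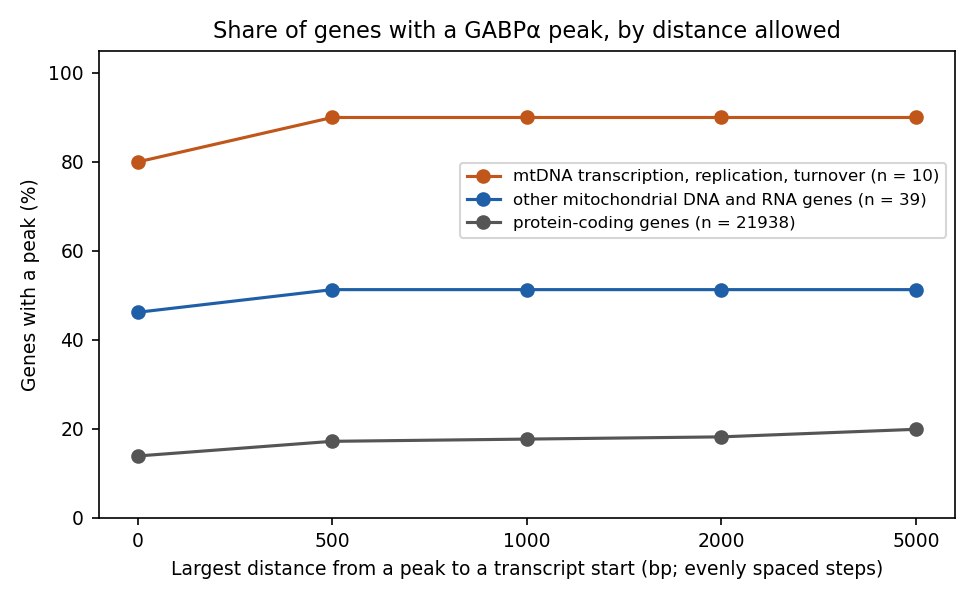
Percentage of genes with a GABPα peak (y axis) when the peak may lie 0, 500, 1000, 2000 or 5000 bp from a transcript start (x axis, evenly spaced steps), for the 10 genes, 39 other genes for mitochondrial DNA and RNA and all protein-coding genes. The 10 genes stay at 90% from 500 bp on, the 39 genes at 51.3%, and all coding genes rise from 13.9 to 19.9%. At 1000 bp the 95% intervals of the 10 genes (59.6 to 98.2%) and the 39 genes (36.2 to 66.1%) overlap.

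The base composition of the promoters was compared, since genes with a peak had promoters richer in GC than coding genes in general. The 300 bp from 250 bp upstream to 50 bp downstream of the gene start had a median GC content of 53.7% at the 10 genes (range 46.7 to 66.3%), 55% at all protein-coding genes and 59.3% at protein-coding genes with a peak. Within the range of the 10 genes, 20.8% of protein-coding genes had a peak (2756 of 13222, interval 20.2 to 21.5%). This range is wide and matches base composition only loosely. Its lower end, 46.7%, is the window of Twnk, which lies outside the Twnk peak, where the GC content was 68.1%. In the same 300 bp, CCGGAAG was present at Polrmt, Tefm and Polg2, and all 3 had a peak. Of the 7 genes without the motif there, 6 had a peak. With the windows set on RefSeq starts, an alternative added after the data were seen, 7 genes held the motif and all 7 had a peak, and of the other 3, Tfb1m, Tfb2m and Lonp1, 2 had a peak. Over all coding genes, 68.5% of those with the motif in the GENCODE window had a peak (1619 of 2364) and 11.6% of those without (2261 of 19574). In the RefSeq windows, found for 16539 coding genes, these shares were 69.5% (1536 of 2209) and 11.1% (1584 of 14330).

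Letters of sites of other factors known at such promoters were counted on both strands of the 9 peaks. The centre of the site of nuclear respiratory factor 1, CGCATGCG, was in the peak of Tfb2m alone, against 3.41% of peaks near coding starts and 2.61% of the 300 bp windows. Its looser form CGCANGCG, which includes the first, was at Tfb2m, Polrmt, Twnk and Ssbp1, 4 of 9 against 15.6% of peaks and 10.7% of windows. These shares were not matched for width, and Twnk and Ssbp1 had the widest of the 9 peaks. The form was 1 of 11 motifs sought, and the difference was not tested. GGGCGGG, a form of the SP1 and KLF site, was in 4 peaks, those of Tfam, Tfb2m, Polg and Twnk, against 40.1%, and CCAAT, the NF-Y site, in that of Polg against 27.6%. TGACG, which is contained in the cyclic AMP response element, was in the 4 peaks of Tfb1m, Polg, Polg2 and Twnk against 35.7%. The whole element TGACGTCA and AGATGGC, a form of the YY1 site, were in none of the 9, against 3.35% and 7.34% of peaks. A match of letters is a description and not a site in use, and no match says only that these letters were not in the interval.

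Of 39 other genes whose products serve mitochondrial DNA and RNA, 20 had a peak within 1000 bp, 51.3% (interval 36.2 to 66.1%), and 13 of the 20 peaks held CCGGAAG. The interval of the 10 genes, 59.6 to 98.2%, overlapped this one, and the difference was not tested. Their widths had a median of 214 bp (128 to 503 bp). The genes with and without a peak were found in every group of the list. In replication and repair, 4 of 9 had a peak, the widest at Fen1 (225 bp), which encodes the flap endonuclease. The farthest from any peak were Dna2 (277689 bp), a nuclease and helicase, Mgme1 (188019 bp), the mitochondrial exonuclease, Exog (121773 bp), another nuclease, and Top1mt (26176 bp), the mitochondrial topoisomerase.

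In the family of the mitochondrial termination factor, 4 of 5 had a peak, the widest at Mterf1b (271 bp), and Mterf3 was 75625 bp from any. The peaks of Mterf1b and of its near-identical copy Mterf1a held no 36-base sequence that occurred once in the genome (0%), so a peak at either copy cannot be assigned to it with certainty. Both copies are included in the 4 of 5 and in the 20 of 39 genes with a peak. As both peaks held CCGGAAG, they are also among the 13 of 20. In processing and decay of mitochondrial RNA, 8 of 18 had a peak. The widest was that of Trmt10c at 503 bp, which encodes a subunit of mitochondrial RNase P. Hsd17b10, which encodes another subunit of that enzyme, was 229433 bp from the nearest peak, and Fastkd2 429916 bp, Lrpprc 191827 bp and Mtpap, the poly(A) polymerase of mitochondria, 176266 bp.

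Among nucleoid proteins and proteases, Clpp, the proteolytic subunit of the matrix protease ClpXP, had a peak of 293 bp, while its partner Clpx was 35769 bp and Atad3a 40960 bp from the nearest peak. Of the genes named here for matrix proteases and their subunits, Clpp had a peak within 1000 bp, and Clpx and Lonp1 had none. In nucleotide supply, 3 of 4 had a peak, the widest at Dguok (333 bp), the deoxyguanosine kinase of mitochondria, and Rrm2b, a subunit of ribonucleotide reductase, was 517537 bp from any. None of the 6782 peaks was on the mitochondrial chromosome (0 peaks), and the list covers 21 chromosomes. Whether mitochondrial reads were kept for the peak calling is not given in the sources used here. The count therefore does not show whether GABPα was bound there.

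**Figure D4:**
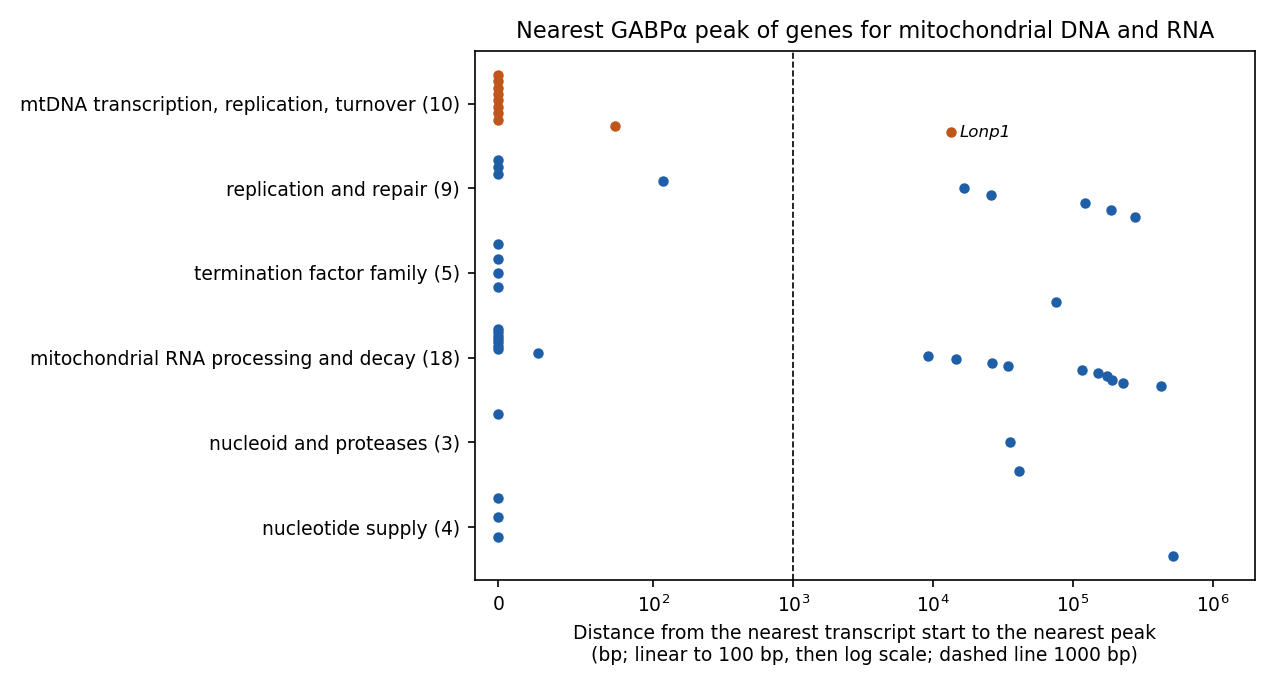
Distance from the nearest transcript start of each gene to the nearest GABPα peak (x axis, bp, linear to 100 bp and then logarithmic), for the 10 genes in orange and 39 other genes in blue, by group. Each point is a gene, and points are spread vertically for clarity. Genes fell on either side of the dashed line at 1000 bp with none between 117 and 9184 bp from a peak.

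The shares carry counting error only, and with 1 library the variation between preparations of cells is unknown. A gene without a peak is one where no interval passed the threshold of the peak calling, which at an unknown depth does not show that GABPα was absent.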

How the data were processed

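CD4 T cells gave 1 GABPα ChIP library and 1 input library. As the study's methods and the submitters' processing notes state, 36 bp reads were trimmed by the authors (Trimmomatic) and mapped to mm10 (Bowtie), and peaks were called against the input with MACS2 at a q value of 0.01. How reads with several matches were treated is not given in the sources used here. The authors deposited the peak positions in bp, which carry no normalization, and a score column that is empty. Depth is therefore unknown. The input entered only through the peak calling, and its reads were not used here. The expression arrays of the study were not analysed here.

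The list was read as BED, with 0-based starts, and positions are printed 1-based on GRCm38.p6 (mm10). Gene and transcript starts are from GENCODE M21, and a distance is that from a start to the nearest edge of a peak. RefSeq starts come from the RefSeq promoter sequences of GRCm38.p6. A core position is that of the first G of GGAA. The 11 motifs were sought as exact letters on both strands. Peaks near coding starts are those within 1000 bp of a transcript start of a protein-coding gene. Shares have Wilson 95% intervals (scipy 1.17.1). Other tools were Python 3.11.15, numpy 2.4.6, numba 0.67.0 and matplotlib 3.10.9, and the motif search and the search for unique 36-base sequences were tested on simulated data.

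The 10 genes, the list of 39 other genes and the tests were chosen with earlier results of these data known. All 10 genes are named, as are genes that start within 1000 bp of their peaks. In each group of the 39, the gene with the widest peak and up to 4 genes without a peak, those with the largest distances, are named. The 30-base windows were chosen by the longest motif form nearest the midpoint. The further core of Tfb1m, the CGGAAG of Lonp1 and the longer stretches were chosen after the data were seen. So were the spacing and the number of CGGAAG copies counted for comparison with Tfb2m. Alternatives covered the distance allowed, the transcripts used, the width of peaks, the motif and the region searched. With 1 library there was no test and no replicate to leave out.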

Additional observations from a re-analysis of the deposited data

How the results depend on the processing

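The number of the 10 genes with a peak was 8 or 9 under every alternative tried. It was 8 when the peak had to cover a transcript start, which left out Tfam, and 8 when only peaks at or above the median width of the list, 157 bp, were kept, which left out Polrmt. Of 49 alternative values for 11 results, 34 stayed close to the value reported and 15 moved. The share of all protein-coding genes with a peak, 17.7%, became 13.9% at 0 bp, 17.2% at 500 bp, 19.9% at 5000 bp, 16.4% from the gene start only and 14% with the wider peaks only. The number of peaks with the motif, 7 of 9, became 4 with CCGGAAGT. It was 5 within the 100 bp around the midpoint, which was counted among the values that stayed close. The share of peaks near coding starts with the motif, 57.2%, became 76.6% with CGGAAG, 98.8% with GGAA, 30.5% with CCGGAAGT and 48.3% in the 100 bp around the midpoint. Genes with a coding neighbour start on the other strand, 2 by distance from the gene start, became 1 within 500 bp and 4 with neighbours of any type. The gene lost at 500 bp was Twnk, and from any transcript start of the gene the number was 2 at 500 bp and at 1000 bp. The median GC content, 53.7%, became 61.9% when the peaks themselves were measured. RefSeq starts, which like the distance from any transcript start were chosen after seeing the data, moved the genes with CCGGAAG in the 300 bp start window from 3 to 7 and the cores upstream of the start from 2 to 8. They left the number of genes with a peak at 9 and the median distance of the midpoints at 39.5 bp. No replicate could be left out, because there is 1 ChIP library.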
